A study of Mus musculus with 6 samples.

Results

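The Müller glia homeostasis genes described here were a list of 9 genes, Glul, Slc1a3, Kcnj10, Aqp4, Car14, Apoe, Clu, Dkk3 and Sox9, of 52636 genes in the count table. Each was found by its Ensembl identifier, and all 9 had UMIs. They were followed in single-cell RNA sequencing of 6 retinas from male C57BL/6J mice aged 12 months, 3 Dram2 wt/wt (WT) and 3 Dram2 ko/ko (KO). The KO mice carry a constitutive CRISPR/Cas9 deletion of a Dram2 exon, and the labels name no other allele or treatment. The labels list the retinas as separate replicates without saying whether animals were pooled, and their protocol text speaks of 1 sample per genotype, so p-values measure the spread between these 6 samples. The question for each gene was in which of the 5 deposited cell types it is found, how it varies among glial cells, and whether its level differs between genotypes.

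Müller glia are the radial glia of the retina and span its whole thickness. They take up glutamate released by neurons and convert it to glutamine, carry potassium and water from the active layers to the vitreous and the vessels, buffer pH and supply lipids. The list covers each of these tasks. Slc1a3 encodes the glutamate transporter GLAST and Glul encodes glutamine synthetase. Kcnj10 encodes the inward rectifier potassium channel Kir4.1, Aqp4 a water channel and Car14 a membrane-bound carbonic anhydrase. Apoe and Clu encode secreted apolipoproteins, Dkk3 a secreted protein of the Dickkopf family, and Sox9 a transcription factor of glia.

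In the GENCODE M21 annotation of GRCm38 the genes other than Aqp4, whose position is not reported here, lie at chr1:153899944-153909723 (Glul), chr15:8634124-8710764 (Slc1a3), chr1:172341210-172374085 (Kcnj10), chr3:95897768-95904691 (Car14), chr7:19696109-19699188 (Apoe), chr14:65968483-65981547 (Clu), chr7:112116017-112159057 (Dkk3) and chr11:112782224-112787760 (Sox9). RefSeq promoter sequences of GRCm38.p6 were at hand for 5 of the 9, Glul, Slc1a3, Kcnj10, Car14 and Apoe. They are shown because the first 3 and the last 2 differ in the cell types below, Car14 and Apoe being abundant in RPE cells too. Each run is the 250 bases before the RefSeq start, 5′ to 3′ on the strand of the gene, with motif letters in capitals. The windows are chr1:153899679-153899928 on the plus strand for Glul, chr15:8710808-8711057 on the minus strand for Slc1a3, chr1:172340960-172341209 on the plus strand for Kcnj10, chr3:95904686-95904935 on the minus strand for Car14 and chr7:19699189-19699438 on the minus strand for Apoe.
Glul: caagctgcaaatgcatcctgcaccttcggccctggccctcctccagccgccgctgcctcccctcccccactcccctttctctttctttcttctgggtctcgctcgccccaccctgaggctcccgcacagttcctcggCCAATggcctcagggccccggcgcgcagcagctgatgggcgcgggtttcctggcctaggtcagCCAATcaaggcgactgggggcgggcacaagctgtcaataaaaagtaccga
Slc1a3: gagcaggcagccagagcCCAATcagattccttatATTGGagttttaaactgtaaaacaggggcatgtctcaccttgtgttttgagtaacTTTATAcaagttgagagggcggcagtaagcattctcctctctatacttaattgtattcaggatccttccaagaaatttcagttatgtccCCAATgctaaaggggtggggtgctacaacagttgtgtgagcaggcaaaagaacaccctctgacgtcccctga
Kcnj10: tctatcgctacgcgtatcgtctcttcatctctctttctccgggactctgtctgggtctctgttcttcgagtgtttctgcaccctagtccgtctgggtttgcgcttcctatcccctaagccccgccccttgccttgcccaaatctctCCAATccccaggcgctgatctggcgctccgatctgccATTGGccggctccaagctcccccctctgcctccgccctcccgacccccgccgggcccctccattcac
Car14: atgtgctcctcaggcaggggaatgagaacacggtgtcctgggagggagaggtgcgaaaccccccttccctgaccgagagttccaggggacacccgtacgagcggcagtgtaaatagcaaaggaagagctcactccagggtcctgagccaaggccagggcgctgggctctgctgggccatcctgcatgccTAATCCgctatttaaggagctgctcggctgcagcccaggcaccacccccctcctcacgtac
Apoe: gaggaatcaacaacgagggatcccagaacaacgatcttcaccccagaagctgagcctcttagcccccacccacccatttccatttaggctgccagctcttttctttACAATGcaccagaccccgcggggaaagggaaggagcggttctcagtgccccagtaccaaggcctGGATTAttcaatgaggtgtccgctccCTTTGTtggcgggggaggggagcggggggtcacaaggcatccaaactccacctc

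The letters were searched on both strands and were chosen with these sequences in view. CCAAT occurred in the windows of Glul, Slc1a3 and Kcnj10 and in 33.8% of 32817 promoter windows of the same length. TAATCC, the core letters bound by OTX and CRX factors, occurred in those of Car14 and Apoe and in 6.25% of all windows. The Apoe window also held ACAATG and, on the other strand, ACAAAG, letters of SOX factor sites, either of which was in 25.2% of windows. TATAAA was read on the minus strand of the Slc1a3 window and stood in 12.4% of all windows, and CACGTG or CATGTG, E-box letters found in 17.6%, was in none of the 5. These matches describe the letters of 5 windows only.

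Together the libraries held 46375 cells and 28002465 UMIs, 3463728 to 6563762 UMIs per retina. The deposited types were glia (942 cells), photoreceptors (42359), interneurons (2083), mesenchymal cells (246) and retinal pigment epithelium (RPE) cells (116), with 629 cells left untyped. WT replicate 3 and KO replicate 3 carry the label batch 1. They had mitochondrial UMI shares of 3.22% and 2.75%, against 0.405% to 0.720% in the other 4. The glial counts of KO replicate 1 stood apart from those of the other batch 2 retinas (chi-square per degree of freedom 3.44 to 4.02, against 1.19 to 1.32 among the other 3). Levels are CPM, the UMIs of a gene per 1000000 UMIs of the cells of a type in a retina. Dram2 itself, over all cells, was read at 27.8 to 56.0 CPM in WT and 27.4 to 53.5 in KO. A 3′ tag need not lie in the deleted exon, so this is no check of the labels.

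The glial label fitted its markers. A list of 8 other Müller glia genes (Rlbp1, Gpr37, Abca8a, Col9a1, Crym, Spc25, Espn and S100a16) was detected whole in glia, at 10113 to 15937 CPM per retina. It was detected whole in photoreceptors (59.8 to 221 CPM), interneurons (73.4 to 209) and mesenchymal cells (256 to 693) too, so the level sets glia apart. In RPE cells 6 of the 8 were detected, at 2573 to 3104 CPM in sum. All 4 genes of an astrocyte list also had UMIs in glia, at 142 to 402 CPM in sum, and Mog and Mobp of the oligodendrocyte list were at 0. The endothelial list summed to 342 to 556 CPM in glia, with 4 of its 5 genes detected and Cdh5 at 0, against 14.9 to 22.8 in photoreceptors. Rod genes were present in glia at 5289 to 12579 CPM, against 53362 to 82358 in photoreceptors. Rod UMIs were found in every type, at 5057 CPM or more. The levels of the 9 genes outside glia are given below beside those of other glial genes.

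Of the 9 genes 7 were highest in glia in the mean over retinas, and 71.0% (Sox9) to 92.2% (Aqp4) of all UMIs of each gene lay in glial cells, which were 1.11% to 3.90% of the typed cells of a retina. The other 2, Car14 and Clu, were highest in RPE cells, with ranges that overlapped those of glia. The authors drew the types from the counts described here, so the order of types is given without a test. Retinas are given with replicates 1, 2 and 3 in that order.

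The 2 genes of glutamate handling were concentrated in glia. Glul was read at 13916, 13372 and 17627 CPM in WT glia and at 18021, 14118 and 17863 in KO glia. The 6 glial values lay far above every other type, and the mean of 15820 ± 2227 (SD, n = 6) fell away to 1240 ± 406 in mesenchymal cells, 634 ± 214 in RPE cells, 232 ± 45.6 in interneurons and 142 ± 48.9 in photoreceptors. Only the last 2 types had overlapping ranges, and there too interneurons were higher in each of the 6 retinas. Slc1a3 was at 1321, 1352 and 1152 CPM in WT glia and at 844, 1211 and 1193 in KO glia, with the lowest value in KO replicate 1. Outside glia its means were 15.5 ± 14.8 in mesenchymal cells, 12.5 ± 10.0 in interneurons and 5.60 ± 3.09 in photoreceptors, 3 types with overlapping ranges. RPE cells held 0 Slc1a3 UMIs among 151269, which allows a level of up to 19.8 CPM. Intervals and limits of this kind cover counting error only.

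The genes of potassium, water and pH transport split. Kcnj10 was sparsely read, at 76.4, 107 and 157 CPM in WT glia and at 101, 41.3 and 157 in KO glia. Its 6 UMIs in the glia of KO replicate 2 and 15 in KO replicate 1 were the fewest behind any glial value of the list. It was at 2.21 ± 1.12 in interneurons and 1.39 ± 0.749 in photoreceptors, and at 0 in all mesenchymal and RPE cells. Aqp4 was at 722, 783 and 777 CPM in WT glia and at 690, 894 and 893 in KO glia. Its means in the other 4 types, 2.72 to 14.6, had overlapping ranges, and its 1 UMI in RPE cells came from WT replicate 3. Car14 showed a different pattern. It was at 1466, 1486 and 1461 CPM in WT glia and at 1441, 1417 and 1319 in KO glia, a spread (SD 59.8 around a mean of 1432) that was smaller relative to its mean than those of Slc1a3 (SD 181 around 1179) and Kcnj10 (SD 45.4 around 107). In RPE cells it was at 2282, 2857 and 1501 in WT and at 1342, 2706 and 879 in KO, higher than in the glia of the same retina in 4 of 6 retinas. The 2 ranges overlapped, and the other 3 types were at 42.8 or below in the mean.

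The secreted proteins were shared with RPE cells, with the exception of Dkk3. Apoe was read at 18151, 18579 and 20692 CPM in WT glia and at 21814, 16630 and 22628 in KO glia. RPE cells held 10663, 10939 and 8674 in WT and 12031, 12999 and 12242 in KO, below the glia of the same retina in all 6 retinas. Mesenchymal cells came next, at 3852 ± 3851, with a spread as large as the mean. Clu was at 8218, 8647 and 9384 in WT glia and at 9510, 8924 and 10446 in KO glia. In RPE cells it was at 10850, 11315 and 5616 in WT and at 10779, 11446 and 10484 in KO, higher than in glia in 5 of 6 retinas, WT replicate 3 being the exception. Its means in interneurons (242 ± 45.8) and mesenchymal cells (223 ± 166) had overlapping ranges. Dkk3 was at 3391, 2630 and 3327 CPM in WT glia and at 2560, 2442 and 3052 in KO glia. Interneurons were next at 87.4 ± 65.6, with ranges that overlapped those of mesenchymal cells, RPE cells and photoreceptors.

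The transcription factor Sox9 had an even glial level, at 294, 261 and 278 CPM in WT and at 288, 296 and 282 in KO (mean 283 ± 12.8, n = 6). RPE cells were second at 132 ± 56.4 from 1, 3 and 4 UMIs in the WT retinas and 4, 4 and 3 in the KO retinas, and no RPE value reached a glial value. Interneurons, at 18.0 ± 10.9, lay below both in each of the 6 retinas. The plot of levels by type shows the shared glial peak and the second peak of Car14, Apoe, Clu and Sox9 in RPE cells.

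**Figure D1:**
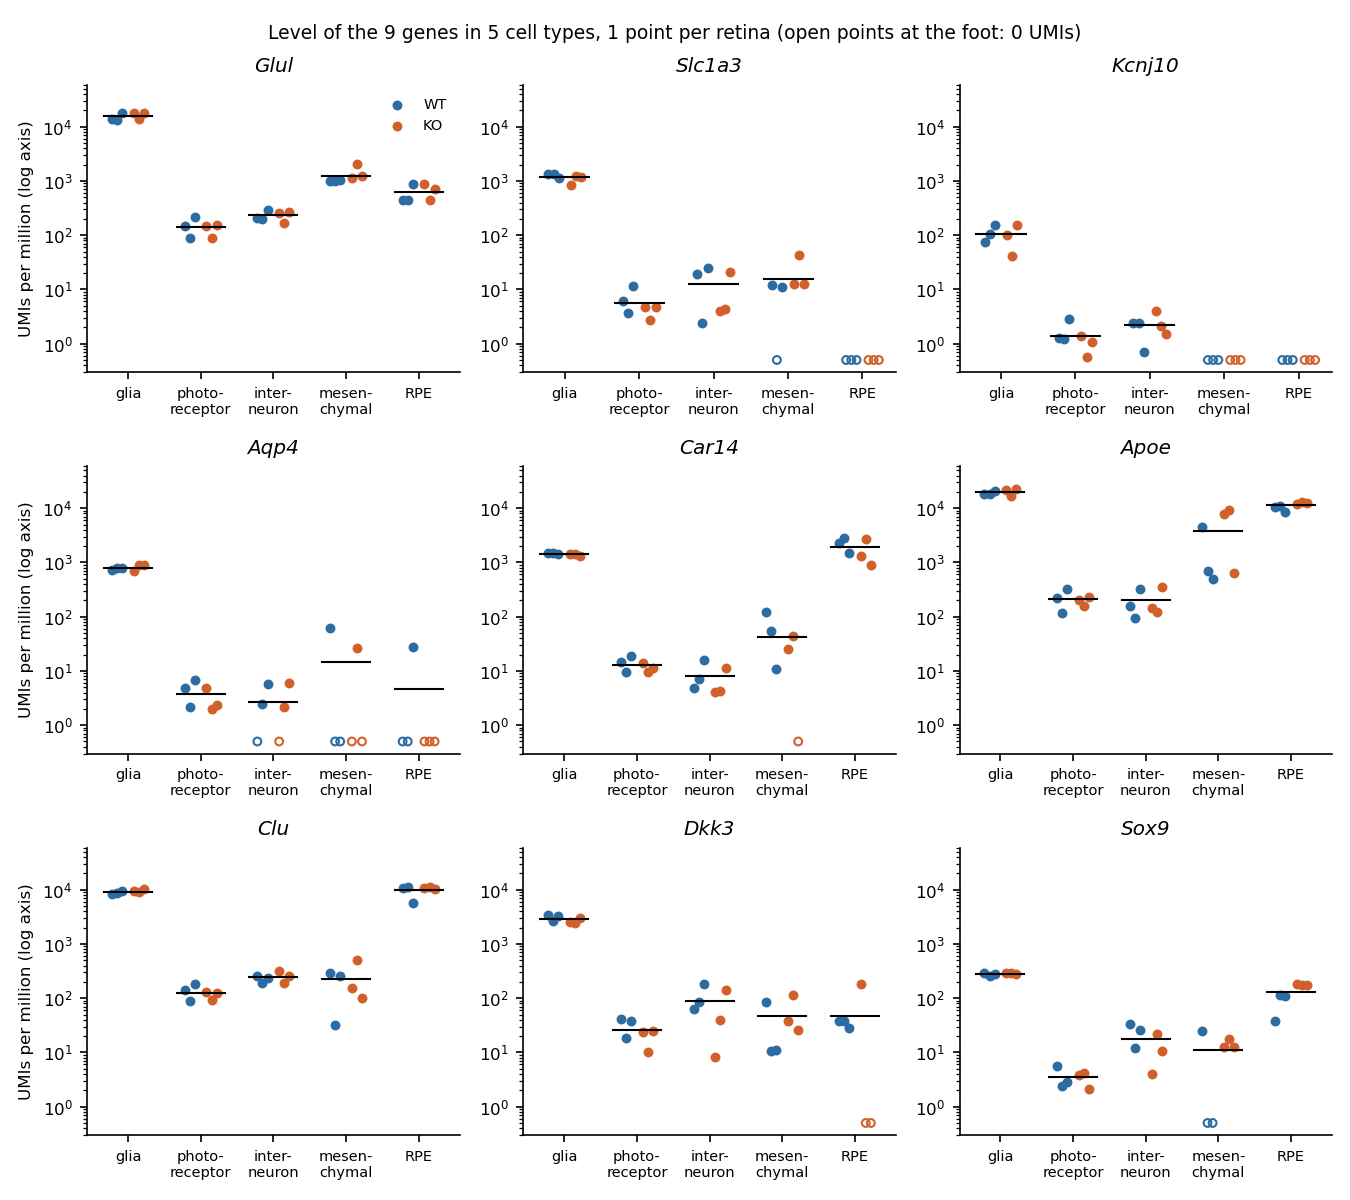
Level of the 9 genes (vertical log axis, CPM) in 5 cell types (horizontal axis), 1 point per retina, WT blue and KO orange, with a black line at the mean of 6 retinas and open points at the foot for retinas with 0 UMIs. Glia are highest for 7 genes, RPE cells have means of 1928 and 10082 for Car14 and Clu, and Slc1a3 and Kcnj10 have 0 UMIs in RPE cells.

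Across the 30 sums of retina and type, 2 sets of members had like patterns, without a sharp border between them. This is a description, since all sums share libraries and type labels. On the log2 scale with 10 added to each value, Slc1a3, Kcnj10, Aqp4 and Dkk3 had pairwise Pearson correlations of 0.90 to 0.96. Car14 and Clu correlated at 0.95 and Clu and Sox9 at 0.93, while Slc1a3 and Car14 reached 0.45. Apoe correlated at 0.84 to 0.90 with Car14, Clu and Sox9. Glul correlated at 0.83 to 0.88 with Slc1a3, Kcnj10, Aqp4 and Dkk3, and at 0.64 to 0.80 with Apoe, Car14, Clu and Sox9. Among 1791 genes with at least 100 CPM in glia, the gene most like each member was Abca8a for Aqp4 (r = 0.989), Col9a1 for Slc1a3 (0.985), Tff2 for Kcnj10 (0.985), Spon1 for Clu (0.981), F3 for Car14 (0.969), Slc39a1 for Glul (0.957), Dbi for Sox9 (0.95), Slitrk2 for Dkk3 (0.941) and Prdx1 for Apoe (0.930).

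RNA that leaks from broken glia enters droplets of all types, and 1 source keeps its genes in 1 ratio. Each level outside glia was therefore expressed as a percent of the level in glia of the same retina, beside the same percent for the sum of 7 other glial genes. Rlbp1 was left out of that sum, since RPE cells use it in the visual cycle. S100a16 turned out to be abundant in mesenchymal and RPE cells, so a sum of the 6 genes without it, chosen after the data were seen, is given for those types too.

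In photoreceptors the 9 genes lay on either side of the other glial genes. Their means over 6 retinas ran from 0.488% ± 0.278 (Slc1a3) to 1.39% ± 0.371 (Clu) of the glial level, and the 7 other glial genes stood at 0.898% ± 0.287. Apoe and Clu were above those genes in all 6 retinas, and Slc1a3 and Aqp4 in none. Taken singly, the 7 genes had means of 0.729% (Gpr37) to 1.14% (S100a16). Slc1a3 and Aqp4 (0.498%) lay below that span. Above it were Clu, Kcnj10 (1.34%, from 29 UMIs) and Sox9 (1.22%, from 71 UMIs). After thinning to 300 UMIs, 0.0282% (Kcnj10) to 5.49% (Apoe) of 28389 photoreceptors had a UMI of a given gene. Without thinning this was 0.0637% to 9.49% of 42359, at a median of 428 UMIs per cell, and 33497 photoreceptors (79.1%) had no UMI of any of the 9. The number of UMIs of the 9 genes per 100 photoreceptors was 48.8 in WT replicate 3, 31.5 in KO replicate 3, 25.5 in WT replicate 1, 23.4 in KO replicate 1, 17.7 in KO replicate 2 and 15.7 in WT replicate 2. The number of captured glial cells had that same order over the 6 retinas, at 269, 225, 171, 102, 88 and 87. The first 2 are both retinas of batch 1, and the part of the batch in this order was not tested.

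In interneurons the 7 other glial genes stood at 0.981% ± 0.290 of the glial level. Slc1a3, Aqp4, Car14 and Apoe had means of 0.327% to 1.06%, and each was above the other glial genes in 3 or fewer of 6 retinas. Glul (1.46% ± 0.140), Clu (2.63% ± 0.471) and Sox9 (6.31% ± 3.71) were above them in all 6 retinas. Taken singly, the 7 genes had means of 0.649% (Abca8a) to 1.63% (S100a16), a span that held Glul but not Clu or Sox9. Sox9 had 81 UMIs in interneurons in all, so its percent rests on 1 to 37 UMIs per retina. Dkk3, at 2.88% ± 1.98, was above them in 5 of 6, and Kcnj10, at 2.67% ± 1.82 from 7 UMIs in all, in 4 of 6. With the UMIs of the 6 retinas pooled Kcnj10 was at 1.34%, beside 1.16% for the 7 genes.

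The Dkk3 UMIs of interneurons lay mostly in cells with amacrine markers. Interneurons were divided by whether UMIs of Gad1, Slc6a9 and Tfap2b, genes of amacrine cells, outnumbered those of Trpm1 and Pcp2, genes of bipolar cells, a split chosen after the Dkk3 values were seen. The 341 cells with more amacrine-gene UMIs held Dkk3 at 393 CPM, and 51.0% of them had a Dkk3 UMI. The 1348 cells with more bipolar-gene UMIs held it at 22.7, and 4.08% had a UMI. Their median depths were 3202 and 1843 UMIs per cell. The other glial genes differed less between the 2 sets, at 136 and 76.4 CPM. Within batch 1 Dkk3 was at 392 and 25.4 and within batch 2 at 396 and 19.1. The 394 cells with equal numbers or none held it at 79.1. Clu was at 214 in the amacrine-gene cells and 239 in the bipolar-gene cells. Sox9 was at 11.1 in the amacrine-gene cells, 8.83 in the bipolar-gene cells and 79.1 in the cells with equal numbers or none. Those last cells held 46 of its 81 interneuron UMIs. Of them 10.7% had a Sox9 UMI, against 3.52% of the amacrine-gene cells and 1.48% of the bipolar-gene cells. The amacrine-gene cells numbered 14, 18 and 153 in the WT retinas and 3, 20 and 133 in the KO retinas, and 286 of them came from batch 1.

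In mesenchymal cells the 7 other glial genes were at 5.36% ± 1.99 of the glial level, with S100a16 alone at 37.6%, and the 6 genes without it at 2.27% ± 2.30, from 3 to 34 UMIs per retina. Slc1a3, Aqp4, Car14, Clu, Dkk3 and Sox9 had means of 1.35% to 3.88%, on either side of the 6 genes. Clu and Sox9 were above those 6 in 4 of 6 retinas, Car14 in 3, Slc1a3 and Dkk3 in 2 and Aqp4 in 1. These means rest on few cells. Without 6 cells, the one with the largest share of glial-list UMIs in each retina, Aqp4 was at 0.298%, Dkk3 at 0.645%, Clu at 1.32% and Car14 at 1.72%, and the 7 genes at 3.85%. Kcnj10 was at 0 of 535933 UMIs, which allows 5.60 CPM. Glul was at 8.03% ± 3.21 and was above both sums in all 6 retinas. Of the 158 cells whose microglia list was not the larger, 111 had more endothelial than pericyte UMIs, and Glul stood at 1499 CPM there. In the other 47, with a pericyte list equal or larger, it was at 488. The 7 other glial genes, S100a16 included, stood at 516 and 228, and the 6 genes were not summed in these sets. The pericyte list was read at 1324 to 2050 CPM in photoreceptors too, against 2516 to 6870 in mesenchymal cells. After thinning to 300 UMIs, 25.6% of mesenchymal cells had a Glul UMI (exact 95% interval 20.2% to 31.6%), against 3.97% of photoreceptors.

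Apoe in mesenchymal cells rested on very few cells. It was read at 4504, 704 and 485 CPM in the WT retinas and at 7667, 9109 and 642 in the KO retinas, with no separation of the genotypes. Of the 246 cells, 88 had more UMIs of a microglia list than of the endothelial, pericyte and fibroblast lists together. In 37 of the 246 these 2 numbers lay within 5 UMIs of each other. Microglia are the resident macrophages of the retina. Apoe stood at 11108 CPM in these 88 cells and at 698 in the other 158. In the 88 cells, 8 held 30 or more Apoe UMIs and 54 held none. A single cell of KO replicate 2 held 922 of the 2165 mesenchymal Apoe UMIs (42.6%), or 18.7% of its own UMIs, and the 8 richest cells held 85.1%. All 8 came from WT replicate 1, KO replicate 1 and KO replicate 2, the 3 retinas with the highest values. Of the 8, 2 also held 27 and 24 UMIs of the other glial genes and 109 and 22 of Glul. The other 6 held 1 or none of the other glial genes.

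**Figure D2:**
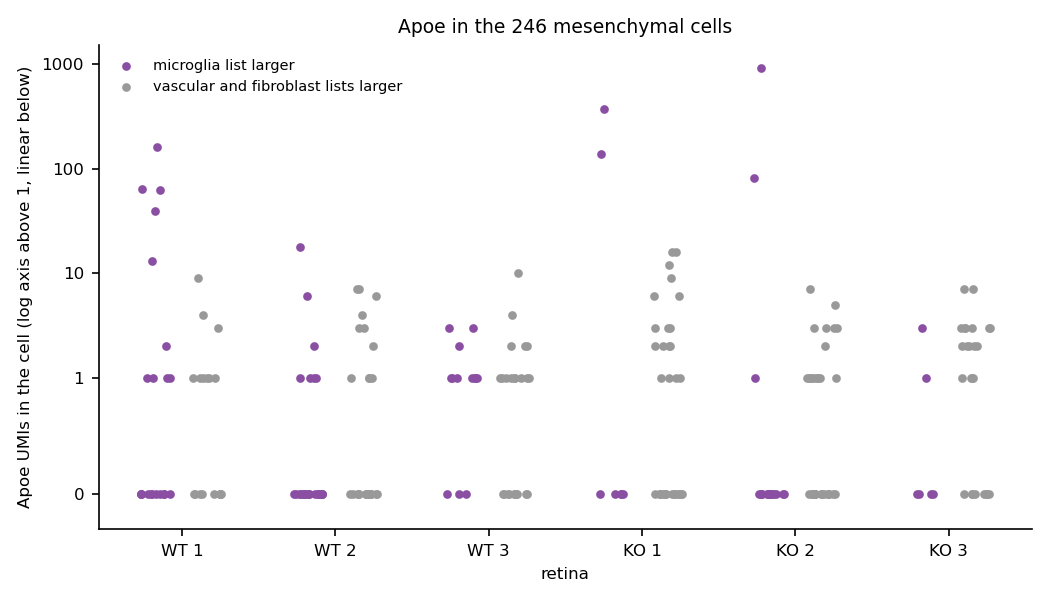
Apoe UMIs in each of the 246 mesenchymal cells (vertical axis, log above 1 and linear below) by retina (horizontal axis), with cells richer in microglia-list UMIs in purple and cells richer in vascular and fibroblast lists in grey. The 8 cells with 30 or more UMIs, up to 922, are all purple and come from 3 retinas.

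RPE cells had the other glial genes at 3.06% ± 1.50 of the glial level, with S100a16 alone at 31.1%, and 4 members far above it. Without S100a16 the 6 genes were at 0.419% ± 0.499, from 0 to 4 UMIs per retina. Car14 was at 134% ± 53.5, Clu at 111% ± 27.8, Apoe at 57.8% ± 11.7 and Sox9 at 46.7% ± 19.3, each above the other glial genes in all 6 retinas. Carbonic anhydrase 14 and the apolipoproteins are known products of the RPE, and Sox9 is known in RPE cells as well as in Müller glia. Glul was at 3.92% ± 0.826, with 3.14% as its lowest value, and was above the 7 genes in 5 of 6 retinas and above the 6 genes in all 6. Dkk3 averaged 1.73% and was above the 6 genes in 3 retinas, Aqp4 averaged 0.597% and was above them in 1, and Slc1a3 and Kcnj10 were at 0. The Dkk3 mean rests on 7 UMIs, 4 of them in KO replicate 1. In 108 RPE cells thinned to 300 UMIs, Clu had a UMI in 92.6%, Apoe in 90.7% and Car14 in 35.2%. In 921 glial cells thinned alike these were 88.3%, 97.9% and 33.6%. The RPE list (Rpe65, Rgr, Ttr, Best1 and Lrat) summed to 86605 to 115966 CPM in RPE cells, with Best1 at 0, and to 82.6 to 235 in glia. In the plot of percent of the glial level the 4 genes are the ones that reach or approach the glial level outside glia.

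**Figure D3:**
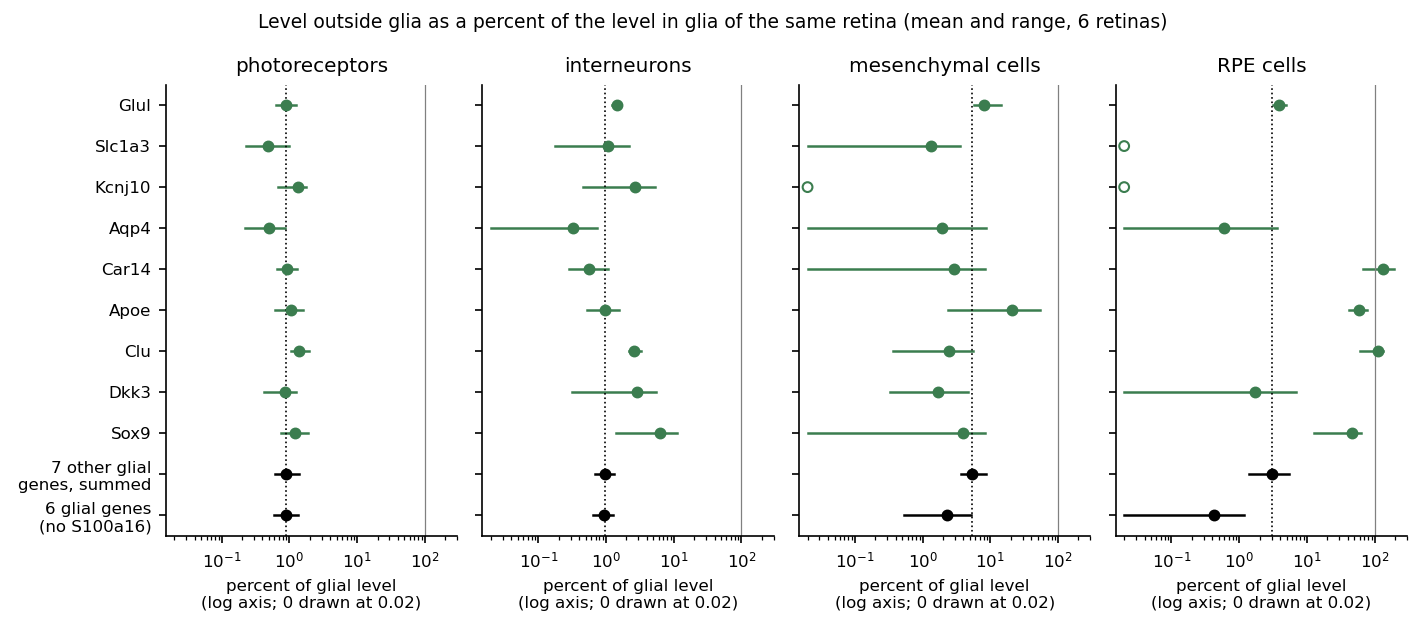
Level of each gene outside glia as a percent of its level in glia of the same retina (horizontal log axis, 0 drawn at 0.02), mean as a point and range over 6 retinas as a bar, with 7 other glial genes summed in black and as a dotted line, and 6 of them without S100a16 in black below. In photoreceptors the means of the 9 genes lie on either side of the dotted line, between 0.488% and 1.39%. Car14, Apoe, Clu and Sox9 lie between 46.7% and 134% in RPE cells.

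Among single glial cells the members were close to universal or rare according to their level. Apoe had a UMI in 99.4% of 942 glial cells, Glul in 97.8%, Clu in 95.8% and Dkk3 in 91.8%. Car14 was detected in 80.8%, Slc1a3 in 75.5%, Aqp4 in 60.8%, Sox9 in 33.7% and Kcnj10 in 18.3%. For comparison, the unthinned shares of photoreceptors were 9.49% for Apoe and 6.56% for Glul, at median depths of 1683 UMIs in glia and 428 in photoreceptors. A glial cell held a median of 25 Glul UMIs, 32 of Apoe and 14 of Clu, and the 9 genes together made up a median of 5.19% of its UMIs (5th to 95th percentile 2.15% to 7.57%).

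Each glial cell showed at least 1 member, and the median cell showed 7 of the 9. All 9 were seen in 41 cells, and 3 or fewer in 60. This number rose with depth, from a mean of 3.48 in 87 cells under 500 UMIs to 7.45 in 269 cells with 2000 or more. The share of UMIs taken by the members was 3.63% in the shallowest cells and 5.38% in the deepest, and the rod list took 1.72% and 1.01%. Thinned to 1000 UMIs, which left out 89 WT and 83 KO cells, the median was 6 of 9. At that depth the variance of the count over its mean was 0.967 for Kcnj10, 1.04 for Slc1a3 and 1.09 for Sox9, where 1 is the value of Poisson counting. It was 2.19 for Clu, 2.73 for Glul and 3.18 for Apoe. Within a retina the 36 pairs of members correlated weakly across thinned glial cells (log2 scale with 1 added), with a median Pearson r of 0.0502 and the highest medians for Glul with Apoe (0.307, range over retinas 0.0743 to 0.594) and for Apoe with Clu (0.276).

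A few glial cells differed from the rest. Of the 942, 20 held 3 or more UMIs of the astrocyte list, 13 from WT and 7 from KO retinas. They numbered 4, 5 and 4 in the WT retinas and 2, 3 and 2 in the KO retinas. In their sum Car14 was at 144 CPM, Aqp4 at 86.3, Dkk3 at 1065 and Glul at 7165, and Kcnj10 was at 0 of 34750 UMIs, which allows up to 86.3 CPM. The Aqp4 value equals that limit and the Car14 value lies not far above it, so both rest on a few UMIs. The other 922 cells held 1452 of Car14, 817 of Aqp4, 3090 of Dkk3 and 16572 of Glul. Apoe (14273 and 20417), Clu (6561 and 9419) and Slc1a3 (863 and 1193) differed less, and Sox9 was at 374 and 281. The 8 other glial genes, Rlbp1 included, were at 4201 and 13729. An overlapping set, the 21 glial cells with a Gfap UMI, held Slc1a3 at 1416 and Kcnj10 at 83.3, the latter equal to its limit. Those 2 differences therefore depended on the cut. Glul (6440), Aqp4 (139), Car14 (333) and Dkk3 (1360) were low in that set too. The cells were picked by markers and the split was chosen after the data were seen, so no test was made. Without the 20 cells the 9 glial means moved by less than their SD.

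**Figure D4:**
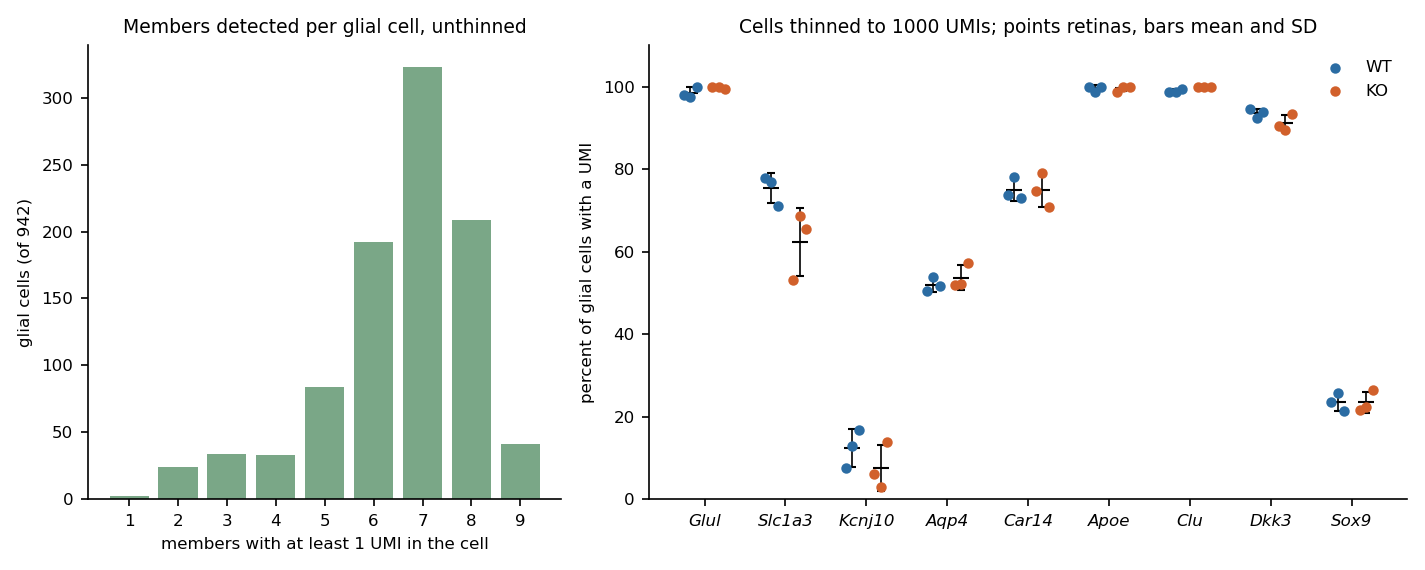
Left, number of glial cells (vertical axis) by how many of the 9 genes had a UMI (horizontal axis), with the peak at 7. Right, percent of glial cells thinned to 1000 UMIs that had a UMI of each gene, 1 point per retina (WT blue, KO orange) with the mean and SD of 3 retinas in black. The Slc1a3 points do not overlap, at 71.2% to 77.9% in WT and 53.0% to 68.7% in KO.

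Genotype was tested per type on the UMIs summed per retina, with edgeR's quasi-likelihood test over all genes and Benjamini-Hochberg adjustment, a gene being called at an adjusted p under 0.05. The main model held genotype alone, without batch. In glia 0 of 4130 tested genes were called (0%), 51 (1.24%) had an unadjusted p under 0.05, and limma-voom and DESeq2 also called 0, with 69 and 15 such genes. With batch as a covariate edgeR and limma-voom again called 0, with 127 and 168 such genes. All 9 members were tested and 0 were called. Their log2 changes, KO against WT, had a median of 0.01, beside -0.02 over all genes tested. In these bulk sums, fewer cells holding a transcript and fewer transcripts per cell cannot be told apart.

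Glutamine synthetase and the glutamate transporter pointed in different directions, each within its error. Glul had a log2 change of 0.11 (SE 0.16, 95% interval -0.24 to 0.47). Slc1a3 had -0.29 (SE 0.24, interval -0.80 to 0.23), and -0.10 without KO replicate 1. In the transport group Kcnj10 had -0.16 (interval -0.98 to 0.65), Aqp4 0.08 (interval -0.41 to 0.56) and Car14 -0.12 (interval -0.57 to 0.32). Kcnj10 was the least precise of the list and its sign changed without WT replicate 3 or KO replicate 2. Apoe had 0.04 (interval -0.31 to 0.38), Clu 0.09 (interval -0.27 to 0.45), Dkk3 -0.26 (interval -0.68 to 0.15) and Sox9 0.01 (interval -0.49 to 0.50). With 1 retina left out Glul ran from 0.077 to 0.19, Car14 from -0.19 to -0.05 (without KO replicate 3), Clu from 0.057 to 0.15 and Dkk3 from -0.32 to -0.18, each with its sign kept. The adjusted p of edgeR was above 0.99 for all 9, and over 15 alternatives it was 0.663 or more for Slc1a3, 0.727 or more for Dkk3 and 0.821 or more for the other 7. The intervals leave out changes of 1 log2 unit or more in either direction for all 9 genes. For Kcnj10 this limit rests on single retinas, since 5 of the 6 fits with 1 retina left out passed it. The lower bound was -1.64 without KO replicate 3, -1.27 without WT replicate 1, -1.04 without WT replicate 2 and -1.02 without KO replicate 1, and the upper bound was 1.07 without WT replicate 3.

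Within batch 1, with 1 retina per genotype, the difference in mean log2 level of Slc1a3 was 0.05, and within batch 2, with 2 per genotype, it was -0.40. For Kcnj10 these were 0.01 and -0.42, for Dkk3 -0.12 and -0.26 and for Glul 0.02 and 0.23. The negative differences of Slc1a3 and Kcnj10 were seen within batch 2 and not within batch 1.

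The share of thinned glial cells with a UMI was compared by an exact two-sided permutation test over retinas, in which 3 against 3 cannot go below 0.1. Slc1a3 was detected in 77.9%, 76.9% and 71.2% of WT glia and in 53.0%, 68.7% and 65.4% of KO glia, with no overlap (exact p = 0.1, 0.45 after Benjamini-Hochberg adjustment over 9 genes). Without thinning the ranges did not overlap either, at 76.2% to 81.9% in WT and 61.8% to 74.7% in KO. Thinned to 500 UMIs the ranges overlapped, at 41.0% to 48.1% in WT and 36.8% to 51.9% in KO. Clu was detected in 98.6% to 99.5% of WT glia and in 100% of KO glia (exact p = 0.1, adjusted 0.45). Of the 770 thinned cells 766 had Clu, so this separation rests on the few without it. Its ranges overlapped when thinned to 500 UMIs, at 95.2% to 98.1% in WT and 97.4% to 100% in KO. They overlapped without thinning too, at 94.3% to 98.2% and 95.5% to 96.1%. The other 7 genes had exact p-values of 0.2 to 1 and overlapping ranges.

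**Figure D5:**
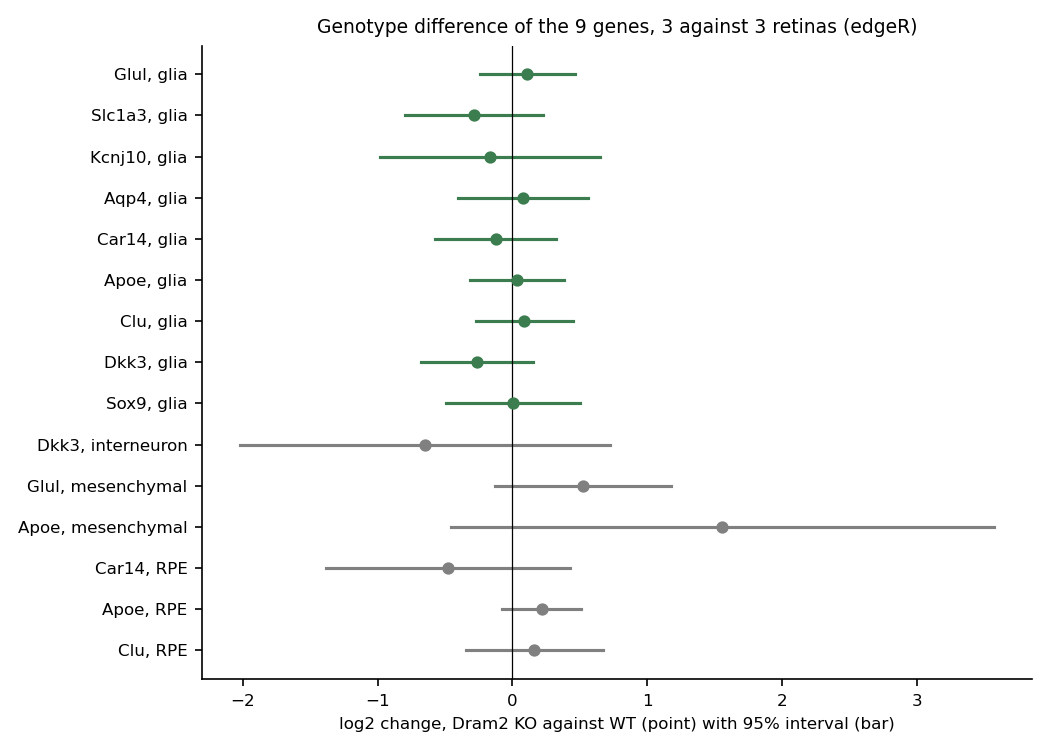
Log2 change in KO against WT (horizontal axis, point) with its 95% interval (bar) for the 9 genes in glia (green) and for 6 gene and type pairs outside glia (grey), from edgeR on 3 against 3 retinas without a replicate block or batch in the model. All intervals of this fit cross 0, and those in glia lie between -0.98 and 0.65.

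Outside glia 0 genes were called in any type by edgeR with genotype alone, 0% of 13053 in photoreceptors, 0% of 7698 in interneurons, 0% of 1717 in mesenchymal cells and 0% of 308 in RPE cells. Unadjusted p-values under 0.05 numbered 109, 86, 150 and 11 by edgeR, 103, 134, 134 and 9 by limma-voom and 50, 18, 87 and 5 by DESeq2, which called 1 gene in RPE cells. With batch as a covariate edgeR called 21 mesenchymal and 3 RPE genes, and limma-voom 35 and 5. Calls with the replicate block or without the low-count filter are given at the end. The paper reports called genes in interneurons, mesenchymal cells and RPE cells alone, and so none in glia or photoreceptors. Its list of called genes holds none of the 9 members. Of the 9 members 8 were tested in photoreceptors, with Kcnj10 too low, and all 8 had negative log2 changes (-0.76 to -0.07, median -0.25 beside -0.01 over all genes). The common sign rested on single retinas. Without WT replicate 3 Apoe was at 0.28, Glul at 0.21 and Clu at 0.05, without KO replicate 2 Apoe was at 0.0047 and Glul at 0.05, and Sox9 was at 0.36 without WT replicate 1 and 0.19 without KO replicate 3. Within batch 2 the difference in mean log2 level was 0.15 for Apoe, 0.03 for Glul and 0.01 for Sox9. Slc1a3, Aqp4, Dkk3 and Car14 stayed below 0 with any 1 retina left out, but without WT replicate 3 Slc1a3 moved from -0.76 to -0.21, Aqp4 from -0.59 to -0.19 and Car14 from -0.28 to -0.028, and Dkk3 moved from -0.70 to -0.40 without KO replicate 2. Of 10 other Müller glia genes 9 had the same sign there. The part of the number of captured glial cells (87 to 269 in WT, 88 to 225 in KO) in these values was not tested. In interneurons Dkk3 had a log2 change of -0.65 (SE 0.62, interval -2.02 to 0.73), and 0.01 without WT replicate 3 and -2.09 without KO replicate 3. Interneuron levels of Dkk3 were 64.0, 86.6 and 183 CPM in WT and 8.14, 38.8 and 143 in KO, highest in the 2 retinas of batch 1. At each replicate number KO was below WT, but the numbers were not shown to pair the retinas. With the replicate number as a block the change was -0.81 (interval -1.37 to -0.25, edgeR adjusted p = 0.998), and with batch as a covariate -0.77 (interval -1.37 to -0.16). Neither fit called the gene. In the amacrine-gene cells Dkk3 was at 554, 506 and 415 CPM in WT and at 0, 273 and 369 in KO, and in the bipolar-gene cells at 26.2, 29.4 and 30.2 in WT and at 5.35, 11.4 and 20.7 in KO. The genotypes did not overlap in either set. The 0 of KO replicate 1 came from 3 cells and allows 328 CPM. The bipolar-gene values rest on 8, 9 and 22 UMIs in WT and on 1, 4 and 15 in KO, and over all retinas were 0.744% of the glial Dkk3 level, where the 7 other glial genes were at 0.884%, so this set as a whole was not above free glial RNA. Dkk3 was above those genes there in WT replicate 2 and KO replicate 3 alone. In the amacrine-gene cells these were 12.9% and 1.57%. The sets were chosen after the Dkk3 values were seen. Amacrine-gene cells numbered 14, 18 and 153 of 260, 241 and 610 interneurons in WT. In KO they numbered 3, 20 and 133 of 160, 276 and 536. The part of this make-up in the interneuron Dkk3 change was not tested. Of the other 3 members tested, Glul had -0.0026, Apoe 0.14 and Clu 0.15. Apoe was at 0.79 without WT replicate 3 and at -0.54 without KO replicate 3. Of the 2083 interneurons 3 held 10 or more UMIs of the other glial genes, 2 of them from KO replicate 3 and 1 from WT replicate 3, and 12.0% of the UMIs of the 9 genes in interneurons. Without these 3 cells Apoe was at -0.06 and Dkk3 at -0.81.

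In RPE cells 4 members were tested. Apoe had a log2 change of 0.22 (SE 0.13, interval -0.08 to 0.51) with every KO value (12031 to 12999) above every WT value (8674 to 10939), Clu 0.16 (interval -0.34 to 0.67), Glul 0.08 (interval -0.78 to 0.94) and Car14 -0.48 (interval -1.38 to 0.43). The RPE list moved the same way as Apoe in these cells, at 90283, 99357 and 86605 CPM in WT and at 104477, 115966 and 99865 in KO, also without overlap. Its part in the Apoe values was not tested. Car14 was at -0.16 without KO replicate 3 and at -1.03 (interval -1.85 to -0.20) without KO replicate 2, and Glul at -0.18 without KO replicate 1. They rest on 10 to 25 cells per retina, and edgeR's adjusted p was 0.910 for Apoe. In mesenchymal cells Glul had 0.52 (SE 0.30, interval -0.13 to 1.18), Clu 0.42 (interval -1.09 to 1.93) and Apoe 1.56 (SE 0.92, interval -0.46 to 3.58, edgeR adjusted p = 0.676). Without KO replicate 2 Glul was at 0.12 and Clu at -0.70, and without WT replicate 2 Clu was at -0.12. A single cell of KO replicate 2 held 109 of the 233 Glul UMIs of that retina. Marker levels of the class moved with the genotype labels. The microglia list summed to 16907 to 23771 CPM in WT and 4700 to 15210 in KO, without overlap, the endothelial list to 4283 to 8415 in WT and 7952 to 10799 in KO, and cells richest in the microglia list numbered 21, 24 and 13 in WT and 7, 17 and 6 in KO. Glul in the endothelial-marker cells was at 933, 1512 and 1514 CPM in WT and at 1427, 1788 and 1528 in KO, with overlapping ranges. The part of the make-up in the mesenchymal values was not tested. Apoe was called there in 2 of 15 alternatives, edgeR without the low-count filter (adjusted p = 0.00155) and limma-voom with batch as a covariate (0.0309). Its log2 change was 3.24 without WT replicate 1 and 0.98 without KO replicate 2. Without the 8 Apoe-rich cells it was 0.18 (SE 0.40), with levels of 580 ± 112 in WT and 727 ± 429 in KO, and Glul was at 0.24 and Clu at -0.57. Taking out cells picked by their Apoe count is a description of where the difference sits, chosen after seeing the data, and not a test.

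Other homeostasis genes from lists written down with the members ranged from genes shared with photoreceptors to genes found mostly in glia. Of 7 genes of potassium, water and membrane anchoring 2 were higher in glia than in photoreceptors in the mean. Some genes not counted as higher were near 0 CPM in glia and in photoreceptors. These were Kcnj2 (0.37 and 0.60) and Kcnj16 (0 and 0.051) here. In the lists below they were Slc6a13 (0.37 and 0.55), Slc38a5 (0 and 0.10) and Apod (0 and 0.37). Atp1b2, a sodium pump subunit, was at 674 ± 139 CPM in glia and 696 ± 100 in photoreceptors. Of 10 genes of glutamate, GABA and amino acid transport 7 were higher in glia than in photoreceptors in the mean, among them Slc38a3 (428 ± 105 and 276 ± 36.5) and Slc1a2 (310 ± 85.5 and 163 ± 42.3). Of 6 genes of pH, bicarbonate and lactate 5 were higher in glia, among them Car2 (3160 ± 259 and 443 ± 47.7) and Slc16a1 (168 ± 66.6 and 148 ± 17.6). Of 7 lipid transport genes 5 were higher in glia, among them Abca8a (867 ± 271 and 7.04 ± 5.02) and Lrp1 (157 ± 45.2 and 2.74 ± 1.01). All 11 glial transcription factors, among them Hes1 (1300 ± 333 and 6.12 ± 3.66) and Pax6 (1113 ± 118 and 7.75 ± 7.23), and all 10 other Müller glia genes, among them Rlbp1 (4598 ± 694 and 49.3 ± 21.4) and Dbi (3963 ± 683 and 100 ± 30.4), were higher in glia. In glia 6 of 10, 2 of 6, 2 of 7, 11 of 11 and 10 of 10 genes of the last 5 lists were tested for genotype by edgeR, and 0 rose or fell. Of the 7 potassium and water genes 5 were tested and 0 rose or fell. The median log2 changes were -0.18 for these 5 genes, all below 0, -0.11 for amino acid transport (4 of 6 below 0), 0.09 for pH (1 of 2), -0.47 for lipid transport (2 of 2), -0.06 for transcription factors (6 of 11) and 0.03 for the other Müller glia genes (4 of 10), beside -0.02 over all genes tested.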

How the data were processed

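Dissociated retinas had been run on the 10x Genomics single cell 3′ v2 platform, which tags each captured transcript with a unique molecular identifier (UMI). The authors aligned reads to mm10 (GRCm38) with exons only, using Cell Ranger 3.1.0 per the labels, and deposited whole-number UMI counts per gene and cell with a table of cell types from their Seurat clustering. Counting from the 3′ end gives no level per length, so levels of different genes do not compare per length. The order used to choose the genes named from the further lists is in CPM. Symbols came from GENCODE M21 (52489 of 52636 identifiers matched). Cell names carried no 10x barcodes, so shared barcodes were not analysed here, and no doublet caller was run.

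Counts were summed per retina and deposited type. KO and WT were compared with edgeR 4.0.16 (TMM, filterByExpr, quasi-likelihood) in R 4.3.3. limma-voom, the method of the study, and DESeq2 1.42.0 were alternatives, as were other scaling, no filter, batch, replicate block, stricter cells (500 UMIs or more, mitochondrial share up to 10%) and each retina left out. The standard error was the log2 change divided by the root of the F statistic. Deviations of same-numbered retinas correlated positively in interneurons (r = 0.10, 0.34 and 0.58), mesenchymal cells (0.09, 0.23 and 0.45) and RPE cells (0.09, 0.28 and 0.51). In glia and photoreceptors those of replicate 1 were at -0.07. In interneurons WT replicate 1 correlated more with KO replicate 2 (0.33) than with KO replicate 1, so this check did not show that the numbers pair the retinas. The replicate block changed no call in interneurons. The scripts were tested on simulated data. Cells were thinned by hypergeometric draws, and shares of single groups have exact (Clopper-Pearson) 95% intervals. Glial depth was 145343 to 453224 UMIs per retina. The members and lists were chosen with earlier results of these data known. The genes named were the 9 members, the 2 highest genes in glia of each further list, genes of those lists near 0 CPM, the most alike gene of each member and the marker lists. An 8th gene of the potassium and water list is not reported here.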

Additional observations from a re-analysis of the deposited data

Results flagged for a closer look

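The 629 cells without a deposited type entered no comparison, and 5 of the 9 genes had more UMIs there than the 3 that a count of 0 allows among their 379054 UMIs. Apoe had 91 UMIs (240 CPM), Glul 73 (193 CPM), Clu 37 (97.6 CPM), Car14 10 (26.4 CPM) and Dkk3 9 (23.7 CPM). In photoreceptors these genes were at 212, 143, 127, 12.9 and 25.7 CPM. Aqp4 had 0 UMIs in the untyped cells.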

How the results depend on the processing

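In glia edgeR called 0 genes, and so did all 15 alternatives, of which leaving out the 20 astrocyte-list cells was chosen after seeing the data. No alternative called a member in glia, and 7 of 135 recomputed log2 changes there changed sign. Leaving out 1 retina at a time gave -0.067 to 0.068 for Sox9, -0.0069 to 0.13 for Apoe, -0.025 to 0.22 for Aqp4 and -0.70 to 0.16 for Kcnj10 in glia, -2.09 to 0.0059 for Dkk3, -0.54 to 0.79 for Apoe and -0.11 to 0.19 for Glul in interneurons, -0.074 to 0.30 for Clu and -0.18 to 0.54 for Glul in RPE cells, -0.70 to 0.85 for Clu in mesenchymal cells, and -0.27 to 0.36 for Sox9, -0.45 to 0.28 for Apoe, -0.44 to 0.051 for Clu and -0.44 to 0.21 for Glul in photoreceptors. In the other types 25 of 270 recomputed changes reversed. Without the low-count filter Sox9 in glia was at -0.0084 and Glul in RPE cells at -0.0077. Glul in interneurons was at 0.0205 by DESeq2, at 0.0207 with RLE factors and at 0.0052 in stricter cells, and Sox9 in photoreceptors at 0.0052 by limma-voom with batch. Apoe in interneurons was at -0.065 without the 3 cells rich in glial UMIs, and Clu in mesenchymal cells at -0.57 without the 8 Apoe-rich cells, both chosen after seeing the data. The cause of these changes was not tested.

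Counts of called genes moved in the other types. Without the low-count filter they were 1 in photoreceptors (Hbb-bt), 1 in interneurons (Hist1h4d), 28 among mesenchymal and 3 among RPE genes. With batch as a covariate edgeR called 21 mesenchymal and 3 RPE genes, and limma-voom 35 and 5. DESeq2 called 1 in RPE cells. Leaving out 1 retina gave 0 to 7 in mesenchymal cells (7 without KO replicate 2) and 0 to 2 in RPE cells (2 without WT replicate 3).

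With the replicate number as a block, edgeR called 26 mesenchymal and 4 RPE genes, and 0 in the other 3 types. In glia the deviations of same-numbered retinas correlated at -0.07, 0.31 and 0.49, so the numbers did not pair every sample, and number 3 is batch 1.

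Shares of glial cells with a UMI (KO minus WT, percentage points) changed sign in 15 of 72 recomputed values. Thinned to 500 UMIs they were 0.269 for Kcnj10, -1.18 for Aqp4, -0.487 for Apoe and 1.30 for Sox9, and without thinning -0.139 for Apoe, -0.0685 for Clu and 1.77 for Sox9. Leaving out 1 retina gave -2.22 to 1.89 for Car14, -0.402 to 0.427 for Apoe and -1.46 to 1.06 for Sox9. The median of members per glial cell was 6 after thinning and 7 before. The 8 other glial genes stood at 0.297% of the glial level in photoreceptors per cell, against 0.954% on the CPM scale. Levels in RPE and mesenchymal cells rest on few cells.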
